A study of Homo sapiens with 6 samples.

Results

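The MAP kinase phosphatases are the dual-specificity phosphatases, encoded by DUSP genes, that switch off the ERK, p38 and JNK kinases. Here 9 of them were taken by gene symbol from a table of 16200 genes: DUSP1, DUSP2, DUSP4 and DUSP5, grouped as nuclear phosphatases of ERK, DUSP6 and DUSP7, grouped as cytoplasmic phosphatases of ERK, and DUSP8, DUSP10 and DUSP16, grouped as phosphatases of p38 and JNK. All 9 were listed in the table. Poly(A)-selected RNA from RBE, an established human intrahepatic bile duct cancer line, was sequenced in 3 libraries labelled sgKCNQ3 and 3 labelled NC. The name sgKCNQ3 is the usual form for a single guide RNA against KCNQ3, a voltage-gated potassium channel subunit, and NC is taken as its control. The design text speaks of KCNQ3 knockdown in RBE. No other allele, agent or time point is labelled, and the sources used here do not say whether the guide cut or repressed the gene, whether the cells were a clone or a pool, or whether the libraries came from separate cultures. The p-values therefore measure the spread between these libraries, which may be technical.

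A MAP kinase is active when a threonine and a tyrosine in its activation loop are both phosphorylated, and a MAP kinase phosphatase removes both phosphates. An N-terminal domain docks the kinase and sets which kinase is bound, while the catalytic domain carries a cysteine that attacks the phosphate. Several of these genes, DUSP5 and DUSP6 among them, are transcribed in response to ERK itself, so that they act as negative feedback, and their mRNA is often read as a record of pathway output. The study's design names ERK1/2 signalling as the pathway downstream of KCNQ3 in these cells. The comparison below covers the mRNA of the phosphatases only, and the activity of ERK was not tested.

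The catalytic codons are shown because they are the feature common to the family that symbol matching did not use. Each of the 9 coding sequences (GENCODE release 29, GRCh38) held the pattern of histidine, cysteine, 5 further residues and arginine exactly once, with the catalytic cysteine at codon 263 in DUSP5, 258 in DUSP1 and 293 in DUSP6. The 24 coding bases of this pattern are printed 5′ to 3′ for 8 members, with the cysteine and arginine codons in capitals.
DUSP1: cacTGCcaggcaggcatttccCGG
DUSP2: cacTGCcaggcgggtatctcgCGC
DUSP5: cacTGTgaggctgggatctccCGT
DUSP6: catTGCttggctggcattagcCGC
DUSP7: cacTGCctggcaggcatcagcCGC
DUSP8: cacTGTctggctggcatctccCGC
DUSP10: cacTGCcaggctggggtgtccCGC
DUSP16: cacTGTttagctgggatctccCGC
Of the 24 bases, 11 were the same in all 8 genes, and any pair of genes shared 15 to 21. Over the whole transcripts only exact stretches of 100 bases were searched, so shorter or inexact likeness between members was not examined. No such stretch in the longest coding transcript of DUSP1, DUSP2, DUSP4, DUSP5, DUSP7, DUSP8, DUSP10 or DUSP16 recurred in a transcript of another gene. The exception was DUSP6, where 35.69% of such stretches also lay in the antisense transcript AC024909.2. The protocol in the labels describes no step that marks strand, so reads from DUSP6 may not be separable from those of this antisense gene. Antisense genes also run across DUSP1 (AC022217.3), DUSP8 (KRTAP5-AS1) and DUSP16 (AC007619.1), with no such stretch in common.

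Total estimated counts per library ran from 15601283 to 16089500. KCNQ3 held 222, 206 and 191 counts in the sgKCNQ3 libraries, against 256, 257 and 252 in the NC libraries, and its mRNA fell by 20.4% (log2 fold change -0.33, SE 0.0841, edgeR adjusted p 0.00446). Of 18 alternative analyses, that call was lost in 2, on log2(TPM + 1) and on log2(TPM + 0.1) (limma adjusted p 0.151 and 0.174). The bile duct and epithelial keratins marked every library: KRT7 averaged 1714 TPM in sgKCNQ3 and 1580 TPM in NC. Leukocyte markers were near zero apart from CD68, a lysosomal protein also made outside leukocytes: PTPRC reached at most 2 counts in any library and CD3E at most 1. Summed over the 6 leukocyte markers in the table, the level was 80.6 to 88.5 TPM in sgKCNQ3 and 94.8 to 101 TPM in NC, nearly all of it CD68.

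Across the phosphatases, DUSP5, DUSP6 and DUSP1 fell, DUSP4 and DUSP16 rose, and DUSP7, DUSP8 and DUSP10 passed no threshold. DUSP2 was too weakly expressed to test. Of the 9 members, 8 passed the filter on low counts, each with at least 294 counts in every library, and 5 of these 8 were called at an adjusted p below 0.05 (edgeR quasi-likelihood test, Benjamini-Hochberg adjustment over 12565 genes). The background was high: 29.1% of all tested genes were called, 14% higher and 15.1% lower. By direction, 3 members were lower and 2 higher. The ranges of the groups, in CPM (counts scaled by library size and TMM factors), did not overlap for the same 5 of the 8 members, while 41.7% of all tested genes showed such a separation. The median log2 fold change of the 8 members was -0.07, beside -0.01 over all tested genes. The split of all calls between higher and lower genes depended on scaling, since 48.2% of calls were higher with TMM factors, 64.5% with library size alone and 80.8% on log2(TPM + 1). In bulk RNA, fewer cells expressing a gene and less RNA per cell cannot be told apart.

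**Figure D1:**
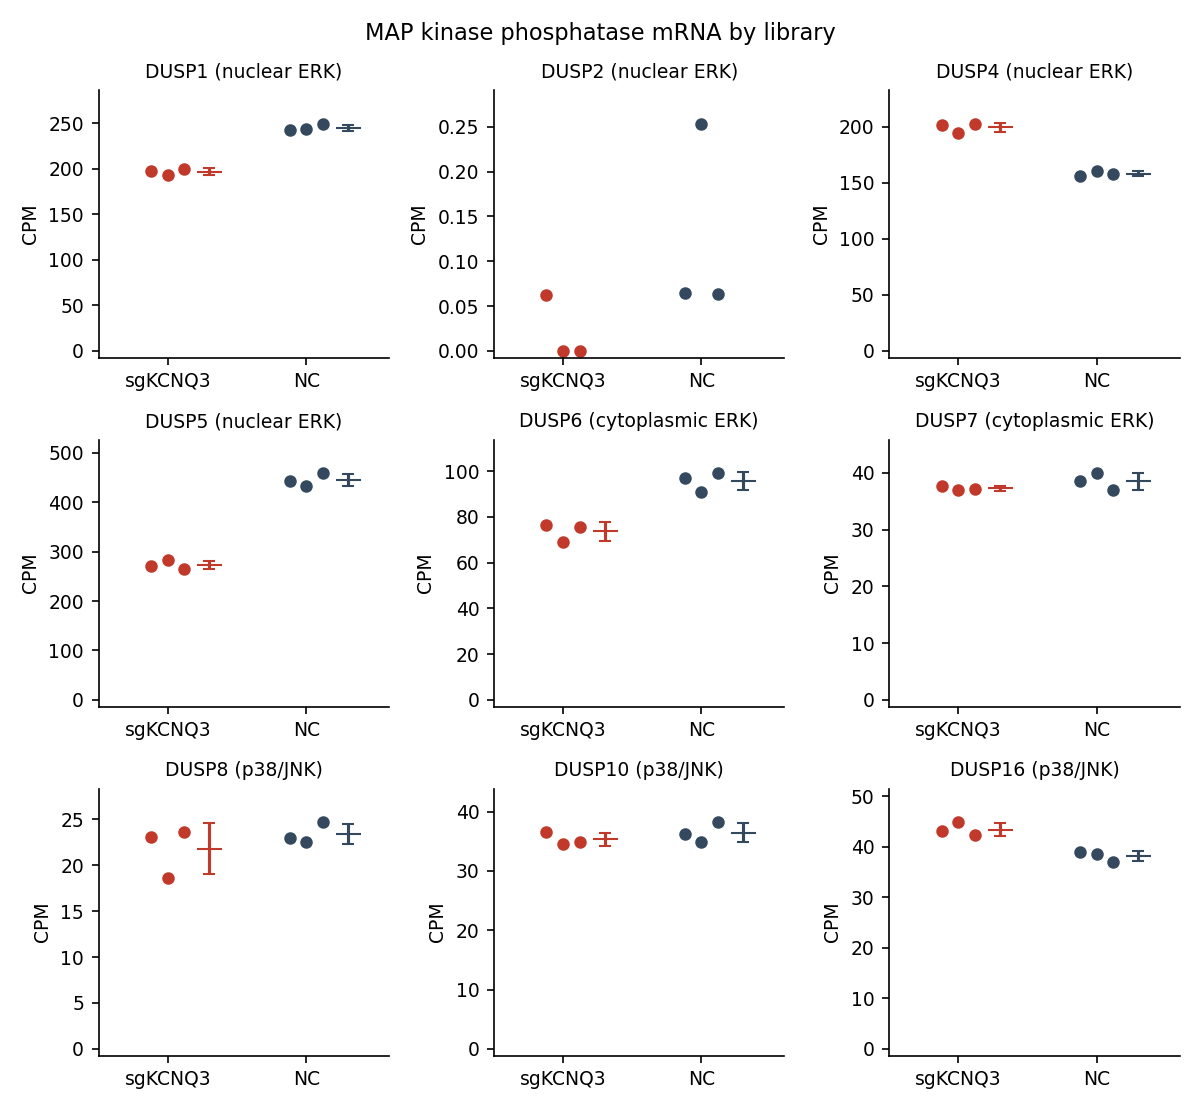
CPM (counts scaled by library size and TMM factors; linear axes from 0) of the 9 members in 3 sgKCNQ3 libraries (left, red) and 3 NC libraries (right, dark). Points are libraries, and the bar beside them is the mean with SD, left out for DUSP2. The groups are separated for DUSP1, DUSP4, DUSP5, DUSP6 and DUSP16.

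DUSP5, an ERK-specific phosphatase that holds ERK in the nucleus, showed the largest change of the 8 tested members. It held 270, 282 and 266 CPM in the sgKCNQ3 libraries, against 443, 433 and 458 CPM in the NC libraries. Every sgKCNQ3 library lay far below every NC library, and replicates within a group differed by a few percent. The mean was 273 ± 8.61 CPM in sgKCNQ3 and 445 ± 12.8 CPM in NC (SD, n = 3 each), so that DUSP5 fell by 38.6% (log2 fold change -0.70, SE 0.0378, edgeR adjusted p 2.57e-12). Its p-value was the smallest of the 12565 tested genes, while by the size of its log2 fold change it ranked 221st. It is a gene of 4 exons on the plus strand of chromosome 10, from 110497838 to 110511544 (GRCh38), with no overlapping gene in GENCODE release 29.

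DUSP1 is an early-response phosphatase of the nucleus that acts on p38 and JNK as well as on ERK. The sgKCNQ3 libraries held 198, 193 and 200 CPM of DUSP1, against 243, 244 and 249 CPM in the NC libraries. The groups did not overlap, and the gap between them was several times the spread within either. DUSP1 averaged 197 ± 3.54 CPM in sgKCNQ3 and 245 ± 3.18 CPM in NC (SD, n = 3 each) and fell by 19.6% (log2 fold change -0.31, SE 0.0371, edgeR adjusted p 6.87e-07). It spans 172768090 to 172771195 of chromosome 5, minus strand.

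DUSP4 moved the other way within the same class. This nuclear phosphatase, which acts on ERK and JNK and is itself induced by ERK, held 202, 195 and 202 CPM in the sgKCNQ3 libraries, against 156, 160 and 158 CPM in the NC libraries. All 3 sgKCNQ3 libraries stood above all 3 NC libraries. The means were 199 ± 4.17 CPM in sgKCNQ3 and 158 ± 1.88 CPM in NC (SD, n = 3 each), a rise to 1.26 times the NC level (log2 fold change 0.34, SE 0.0384, edgeR adjusted p 4.34e-07). The gene occupies 29333064 to 29350668 of chromosome 8, minus strand. On CPM, DUSP1 and DUSP4 thus stood close to each other in the sgKCNQ3 libraries (193 to 202 CPM), while in NC the counts of DUSP1 were well above those of DUSP4, although counts are not adjusted for the longer DUSP4 transcript.

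DUSP2, the remaining nuclear member, is known from activated leukocytes. It had 1, 0 and 0 counts in the sgKCNQ3 libraries, against 1, 4 and 1 counts in the NC libraries. These counts are at or near the limit of detection, so no fold is given. With no filter it was tested and not called (edgeR adjusted p 0.237).

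DUSP6 is the cytoplasmic phosphatase with a strong preference for ERK1/2, and its transcript is among the most widely used readouts of ERK output. It held 76.6, 68.9 and 75.4 CPM in the sgKCNQ3 libraries, against 97.1, 91.1 and 99.0 CPM in the NC libraries. The highest sgKCNQ3 library stayed below the lowest NC library, with the second replicate lowest in each group. DUSP6 averaged 73.6 ± 4.15 CPM in sgKCNQ3 and 95.7 ± 4.12 CPM in NC (SD, n = 3 each) and fell by 23.0% (log2 fold change -0.38, SE 0.0492, edgeR adjusted p 2.98e-06). It lies on chromosome 12, minus strand, from 89347232 to 89353271. AC024909.2 runs antisense to it, so the value may cover reads of either strand.

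DUSP7, the other cytoplasmic phosphatase of ERK, passed no threshold. It held 37.8, 37.0 and 37.2 CPM in the sgKCNQ3 libraries, against 38.6, 39.9 and 37.0 CPM in the NC libraries, and the ranges overlapped. Its log2 fold change was -0.05, with a 95% interval of -0.16 to 0.07 (edgeR adjusted p 0.590), so a change as large as that of DUSP6 lay outside the interval. The estimate was positive on log2(TPM + 1), at 0.04, and not called there either.

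In the group acting on p38 and JNK only DUSP16 was called. DUSP16, which shuttles between nucleus and cytoplasm and prefers JNK, held 43.1, 44.8 and 42.2 CPM in the sgKCNQ3 libraries, against 39.0, 38.6 and 37.0 CPM in the NC libraries. The groups did not overlap, but the gap was small. It averaged 43.4 ± 1.31 CPM in sgKCNQ3 and 38.2 ± 1.04 CPM in NC (SD, n = 3 each), a log2 fold change of 0.18 (SE 0.0561, edgeR adjusted p 0.0153). The call was lost without NC replicate 3 (log2 fold change 0.16, adjusted p 0.0838), in DESeq2 (adjusted p 0.0506) and with each library's trends over transcript length and GC content removed (log2 fold change 0.13, edgeR adjusted p 0.0654). It is the longest of the member genes, at 88174 bases (chromosome 12, minus strand, 12474210 to 12562383).

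DUSP10 and DUSP8, which also act on p38 and JNK, were not called. DUSP10 held 36.6, 34.5 and 34.9 CPM in the sgKCNQ3 libraries, against 36.2, 34.9 and 38.2 CPM in the NC libraries, with ranges that overlapped (log2 fold change -0.04, 95% interval -0.17 to 0.08, edgeR adjusted p 0.622). DUSP8 held 23.1, 18.6 and 23.7 CPM in the sgKCNQ3 libraries, against 23.0, 22.6 and 24.7 CPM in the NC libraries. The second sgKCNQ3 library stood below all others for DUSP8, which left a wide interval (log2 fold change -0.10, 95% interval -0.27 to 0.06, edgeR adjusted p 0.367). Without that library the DUSP8 estimate was 0.01. For DUSP10 the sign was positive on log2(TPM + 1), at 0.04.

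**Figure D2:**
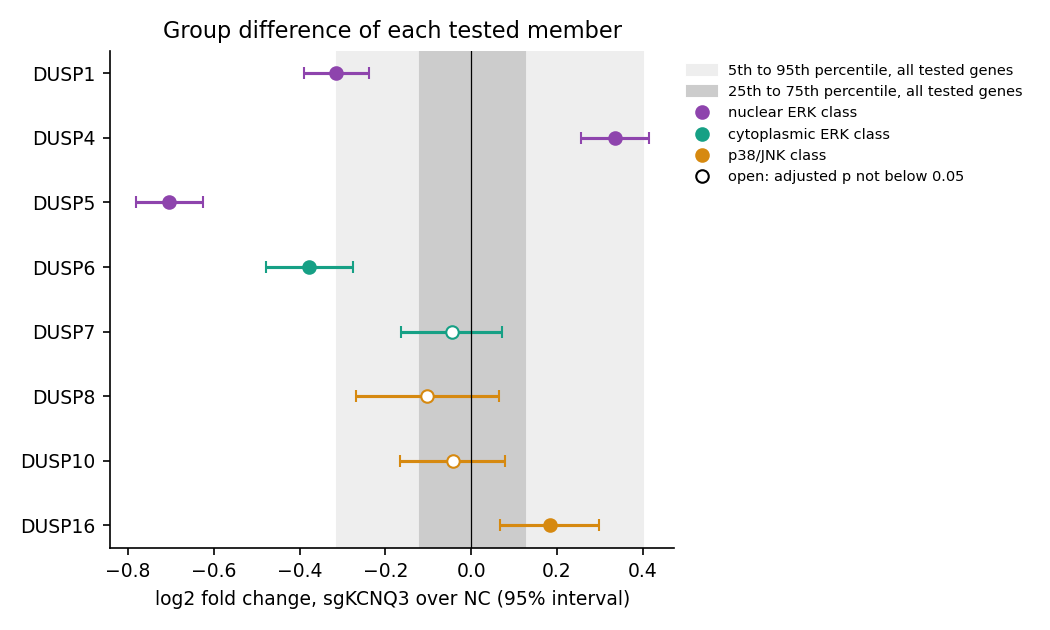
Log2 fold change, sgKCNQ3 over NC, of the 8 tested members with 95% intervals from the edgeR fit; colours give the class, and open circles were not called. The grey bands hold the middle of all tested genes, from -0.12 to 0.13 (25th to 75th percentile) and from -0.31 to 0.40 (5th to 95th). DUSP5, DUSP6 and DUSP1 lie at or below the low end of the outer band, and DUSP4 within it near the high end.

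Set side by side, the classes had medians of -0.31 for the 3 tested nuclear members, -0.21 for the 2 cytoplasmic members and -0.04 for the 3 members acting on p38 and JNK, beside -0.01 for all tested genes. The median of the p38 and JNK members was 0.04 on log2(TPM + 1). The nuclear median covered members that moved in opposite directions, and the cytoplasmic median a member that fell and a member that was not called, so neither class moved as a unit. No difference between classes was tested, because the members were chosen with earlier results of these data known.

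Levels of different members were compared per length, in the authors' TPM. In sgKCNQ3 the order was DUSP5 at 199 ± 2.69 TPM, DUSP1 at 182 ± 6.48, DUSP4 at 60.4 ± 2.32, DUSP6 at 35.3 ± 2.60, DUSP10 at 23.7 ± 1.12, DUSP7 at 19.4 ± 0.50, DUSP16 at 14.2 ± 0.231 and DUSP8 at 7.66 ± 1.11 (TPM level, SD, n = 3 each), with DUSP2 at most 0.07. In NC the order was the same, with DUSP5 at 305 ± 10.3 TPM, DUSP1 at 213 ± 4.0, DUSP4 at 44.9 ± 0.734, DUSP6 at 43.0 ± 1.96, DUSP10 at 23.1 ± 1.08, DUSP7 at 18.8 ± 0.639, DUSP16 at 11.8 ± 0.239 and DUSP8 at 7.70 ± 0.434 (TPM level, SD, n = 3 each), with DUSP2 at most 0.27. The ranges of neighbours in these orders did not overlap, except that those of DUSP4 and DUSP6 overlapped in NC. The TPM ratio of DUSP6 to DUSP4 was 0.601, 0.560 and 0.591 in the sgKCNQ3 libraries, against 0.983, 0.900 and 0.992 in the NC libraries. Among all 16200 genes DUSP5 ranked 724th to 769th by TPM in the sgKCNQ3 libraries and 457th to 481st in the NC libraries.

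The pool of phosphatase mRNA was dominated by DUSP5 and DUSP1. Summed over the 9 members it was 541 ± 11.0 TPM in sgKCNQ3 and 667.5 ± 16.6 TPM in NC (SD, n = 3 each), a difference of -126 TPM, of which DUSP5 made up -106 and DUSP1 -31.3, while DUSP4 added 15.5. Without DUSP5 the sum was 343 ± 13.6 TPM in sgKCNQ3 and 363 ± 6.41 TPM in NC. The nuclear members held 81.0, 82.1 and 81.3% of the members' TPM in the sgKCNQ3 libraries, against 84.2, 84.5 and 84.4% in the NC libraries. This difference of -2.88 percentage points was -0.477 when DUSP5 was left out of the pool. The share of the p38 and JNK members was 8.62, 8.21 and 8.43% in sgKCNQ3, against 6.40, 6.33 and 6.41% in NC. Their summed level, however, was 45.6 ± 1.98 TPM in sgKCNQ3 and 42.6 ± 1.29 TPM in NC with overlapping ranges. DUSP4 made up 11.2 ± 0.205% of the pool in sgKCNQ3 and 6.73 ± 0.189% in NC (SD, n = 3 each). The cytoplasmic share was 10.1 ± 0.374% in sgKCNQ3 and 9.26 ± 0.107% in NC, a difference of 0.836 percentage points that was 0.168 with CPM in place of TPM. The share was 1.09 percentage points lower in sgKCNQ3 when DUSP5 was left out of the pool, the direction of this share being set by DUSP5.

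**Figure D3:**
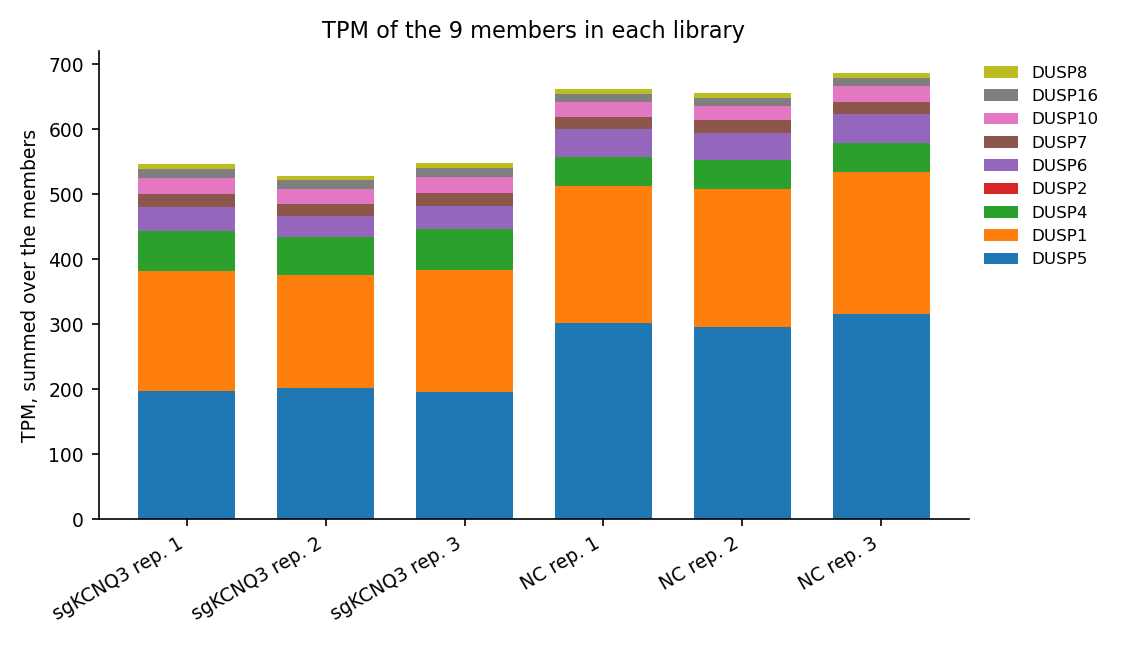
TPM of the members stacked for each library, the 3 sgKCNQ3 libraries on the left and the 3 NC libraries on the right; the bar height is the sum over the 9 members. The sums run from 529 to 548 TPM in sgKCNQ3 and from 655 to 686 TPM in NC, and the DUSP5 segment at the base is the main difference in height.

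Fold changes over the whole table followed transcript length and base composition (Spearman's rho 0.32 with length and -0.262 with GC content, across genes, which are not independent replicates). The members that fell have transcripts of 2019 (DUSP1), 2557 (DUSP5) and 4400 bases (DUSP6), and those that rose 5537 (DUSP4) and 5253 bases (DUSP16). The shift that the fitted trends gave a gene of that length and GC content, sgKCNQ3 minus NC on the log2 scale, was -0.06 for DUSP1, -0.05 for DUSP5, 0.03 for DUSP6 and 0.05 for both DUSP4 and DUSP16. With the trends removed, the log2 fold change was -0.66 for DUSP5 (edgeR adjusted p 2.97e-12), -0.25 for DUSP1 (4.16e-06), -0.40 for DUSP6 (5.92e-07) and 0.28 for DUSP4 (1.15e-06). With the trends removed 4 of the 8 members were called, beside 26.4% of all tested genes. These 4 calls held in all 18 alternative analyses, with ranges of -0.72 to -0.61 for DUSP5, -0.32 to -0.23 for DUSP1, -0.41 to -0.28 for DUSP6 and 0.28 to 0.43 for DUSP4. DUSP16 kept its call in 14 of the 18.

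**Figure D4:**
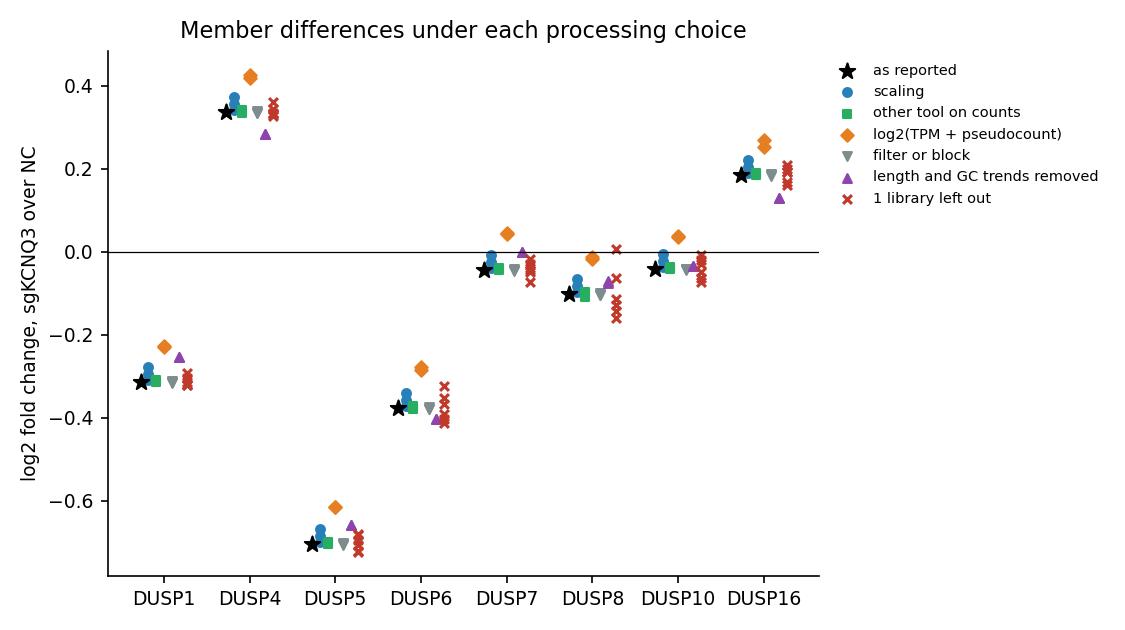
Log2 fold change, sgKCNQ3 over NC, of each tested member as reported (star) and under 18 other settings, one symbol per kind of setting. The clusters of DUSP1, DUSP5 and DUSP6 stay below 0 and those of DUSP4 and DUSP16 above it, while DUSP7, DUSP8 and DUSP10 have values on either side.

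The promoters of the members differed in the motifs they held. RefSeq windows (GRCh38.p14) from 250 bases before to 50 bases after the start site were matched for 7 of the 9 members, in 8 windows. Motifs were searched on both strands as CRE (TGACGTCA), the CRE core (TGACG, which each CRE holds on both strands), AP-1 (TGANTCA), ETS (CCGGAAG), E-box (CACGTG), the NF-kB motif and TATA box (TATAAA). DUSP1 and DUSP6, both of which fell, are printed with DUSP8, which was not called; capitals mark matches, and runs of capitals longer than a motif hold overlapping matches. The windows are chr5:172771146-172771445, chr12:89352452-89352751 and chr11:1572222-1572521, each on the minus strand and read 5′ to 3′.
DUSP1: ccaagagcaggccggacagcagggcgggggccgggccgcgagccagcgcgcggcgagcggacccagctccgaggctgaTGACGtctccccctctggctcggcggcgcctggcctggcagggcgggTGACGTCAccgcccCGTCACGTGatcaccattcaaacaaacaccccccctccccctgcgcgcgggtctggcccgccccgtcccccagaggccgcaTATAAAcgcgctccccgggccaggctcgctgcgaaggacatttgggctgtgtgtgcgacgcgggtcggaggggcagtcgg
DUSP6: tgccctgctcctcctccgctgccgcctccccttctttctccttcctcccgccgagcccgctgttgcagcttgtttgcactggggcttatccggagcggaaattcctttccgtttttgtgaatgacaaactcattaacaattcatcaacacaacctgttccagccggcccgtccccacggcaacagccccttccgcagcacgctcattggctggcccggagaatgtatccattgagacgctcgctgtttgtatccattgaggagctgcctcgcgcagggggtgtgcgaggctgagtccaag
DUSP8: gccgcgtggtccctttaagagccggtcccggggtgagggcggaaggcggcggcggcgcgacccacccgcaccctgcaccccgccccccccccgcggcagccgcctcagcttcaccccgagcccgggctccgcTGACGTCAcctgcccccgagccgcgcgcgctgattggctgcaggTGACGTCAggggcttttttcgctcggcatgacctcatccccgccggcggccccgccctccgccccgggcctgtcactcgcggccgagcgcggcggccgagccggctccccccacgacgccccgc
DUSP1 held 1 CRE, 4 CRE cores of which 2 lie within that CRE, 1 E-box that overlaps a core, and a TATA box 30 bases before its start site, and DUSP8 held 2 CREs. A CRE, the binding sequence of the cAMP-responsive factor CREB, was present in 1.85% of 35116 promoter windows. The CRE core was present in 24.55%, an E-box in 7.26% and a TATA box in 11.5%. The DUSP6 window, like those of DUSP7 and DUSP16 and 1 of the 2 DUSP10 windows, held none of the searched motifs. The other DUSP10 window held 1 CRE core, and the DUSP2 window held 1 E-box. DUSP1 and DUSP6 thus shared no searched motif in these windows, and no window was matched for DUSP5. The DUSP6 window lies wholly inside the GENCODE span of the gene, short of its 5′ end at 89353271. The region before that end was not searched. A match is a run of letters, not a measured binding site.

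A further feature was the AU-rich pentamer ATTTA in the 3′ untranslated region, an element that can mark an mRNA for rapid decay. Of 15854 genes with such a region, 70.1% held at least 1 pentamer, with a median of 2. DUSP4 held 6, DUSP16 held 5, DUSP1 and DUSP8 held 4 each, DUSP2 and DUSP10 held 3 each, DUSP6 held 1, and DUSP5 and DUSP7 held 0. DUSP4 and DUSP16, with the most pentamers, were both called higher, while DUSP1 and DUSP6, called lower, held 4 and 1. DUSP8 and DUSP10, not called, held 4 and 3. DUSP5, called lower, and DUSP7, not called, had none. The counts were not adjusted for the length of the region. It was longest in DUSP4 (3962 bases) and DUSP16 (2623), and 672 bases in DUSP1. A link between pentamers and direction was not tested. Of 6 listed factors that act on AU-rich mRNAs, ZFP36L1 fell (log2 fold change -0.19, edgeR adjusted p 5.22e-04) and KHSRP rose (0.11, adjusted p 0.0271). The other 4 were not called, and any bearing of these factors on the members was not tested. The share called in this list was 33.3%, beside 29.1% of all tested genes. KHSRP lost its call when sgKCNQ3 replicate 1 or 3 or NC replicate 2 or 3 was left out, and ZFP36L1 on log2(TPM + 1).

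Among related phosphatases outside the 9, DUSP9 and STYXL1 were lower. DUSP9, another cytoplasmic phosphatase of ERK, had 116, 111 and 129 counts in the sgKCNQ3 libraries, against 148, 133 and 146 in the NC libraries. The groups did not overlap (log2 fold change -0.29, SE 0.107, edgeR adjusted p 0.0458), but the call was lost in 14 of 18 alternatives, among them those without sgKCNQ3 replicate 1 or 2 and without NC replicate 1 or 3. STYXL1, a catalytically inactive relative, had a log2 fold change of -0.23 (adjusted p 0.00109) and was not called on log2(TPM + 1). Of 9 tested atypical dual-specificity phosphatases, which lack the kinase-docking domain, DUSP11, an RNA phosphatase, was lower (-0.27, adjusted p 0.00309; not called on log2(TPM + 1)), and DUSP19 was higher (0.64, adjusted p 0.0242). DUSP19 lay below 1 TPM in either group and lost its call in 7 of 18 alternatives, among them those without sgKCNQ3 replicate 1 or 2 and without NC replicate 2 or 3. The other 7, DUSP3 and DUSP14 among them, were not called. In this list 22.2% were called, beside 29.1% of all tested genes, and the median log2 fold change was -0.01. Of 7 tested phosphatases of other families that act on MAP kinases, only PPP2CA, a catalytic subunit of protein phosphatase 2A, was called (-0.21, adjusted p 1.34e-04), and not on log2(TPM + 1), so that the share called, 14.3%, also lay below that of all tested genes.

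The kinases that these phosphatases act on showed few changes. Of 10 MAP kinase genes 1 was called: MAPK13, the delta isoform of p38, had a log2 fold change of -0.55 (edgeR adjusted p 0.0435) at 0.463 TPM in sgKCNQ3 and 0.640 TPM in NC, and lost its call in 11 of 18 alternatives, 5 of which left out a library; of the 6 libraries, only sgKCNQ3 replicate 1 could be left out without losing it. Of 7 MAP kinase kinase genes, MAP2K3, an activator of p38, fell (-0.37, SE 0.0411, adjusted p 2.86e-07), and the other 6 were not called. The share called was 10% among MAP kinases and 14.3% among MAP kinase kinases, beside 29.1% of all tested genes.

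Genes used to read ERK output were called in both directions. Over all tested genes 29.1% were called, 14% higher and 15.1% lower, and that split turned with scaling, with 80.8% of calls higher on log2(TPM + 1). DUSP4 and DUSP6 belong to a published 10-gene signature of MAPK activity. Of the other 8 signature genes, all tested, 5 were called lower and 1 higher (75% called), with a median log2 fold change of -0.21. PHLDA1 and EPHA2 each had a log2 fold change of -0.35 (edgeR adjusted p 4.20e-08 and 2.68e-07), SPRY4 of -0.24 and SPRY2 of -0.18. SPRY2 and SPRY4 were not called on log2(TPM + 1). The signature gene called higher was CCND1, at 0.14, which was picked after its value was seen. Of 7 Sprouty and SPRED genes, which encode inhibitors of the same pathway, 2 were called higher, SPRY1 (0.65) and SPRED1 (0.31), and 2 lower, SPRY2 and SPRY4 (57.1% called), with a median of 0.09. Of 17 immediate early genes, 9 were called lower, among them ATF3 (-0.47), FOSL1 (-0.36), IER3 (-0.34) and KLF4 (-0.31), and 1 higher, FOS (0.28), which was picked after its value was seen. In this list 58.8% were called and the median was -0.15.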

How the data were processed

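Estimated counts of reads per gene (expected counts), TPM and FPKM were deposited by the authors for each of 6 libraries, without replicates pooled, per the file headers; 5.52% to 6.33% of the deposited counts were not whole. Per the submitters' processing notes, reads were placed on GRCh38.p13; no source used here gives the aligner, the counter or a strand setting. The authors' signal column (counts divided by 1 factor per library) and their group means, including a whole-number score, were deposited too and entered no test. Groups and replicate numbers came from the titles, which name no batch. Counts were rounded, filtered with filterByExpr (minimum count 10; 12565 genes kept, 3635 removed), scaled with TMM and tested by robust quasi-likelihood fits in edgeR 4.0.16 (R 4.3.3; limma 3.58.1 and DESeq2 1.42.0 for alternatives), with Benjamini-Hochberg adjustment over all tested genes and a threshold of 0.05. The procedure was run on simulated counts with the same dispersion for every gene, a setting that does not copy the spread of the real libraries. SE is the log2 fold change divided by the square root of F. CPM uses TMM-scaled library sizes. An exact permutation test of 3 against 3 libraries cannot go below 0.1. Length and GC trends (splines, 5 degrees of freedom) used GENCODE release 29 transcripts, matched for 16062 genes. Libraries of one group differed beyond counting noise (chi-square over its degrees of freedom 1.63 to 4.18). The pairs that include replicate 2 gave 3.18 and 4.18 in sgKCNQ3 and 2.93 and 2.43 in NC. The remaining pair gave 1.72 in sgKCNQ3 and 1.63 in NC. Members, lists and alternatives were chosen with earlier results of these data known. Genes named by rule are the 9 members, DUSP9, KCNQ3 and, per related list, up to 4 called genes with the smallest p. For DUSP5, DUSP6 and DUSP4, the 3 genes of a mean log2 CPM of at least 2 that correlated best over the libraries are added. DUSP3, DUSP14, CCND1, FOS and the cell type markers were named outside this rule. Figures were drawn with matplotlib 3.10.9.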

Additional observations from a re-analysis of the deposited data

How the results depend on the processing

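The counts of members called lower (3) and higher (2) were the same in every alternative except that 1 was called higher in DESeq2, with length and GC trends removed, and with the replicate block and those trends removed together; leaving out a library gave 1 or 2, the lower value without NC replicate 3. In each of these it was DUSP16 that was not called. The nuclear median of -0.31 was -0.28 with library size scaling, -0.23 on log2(TPM + 1) and on log2(TPM + 0.1), -0.51 with no filter, where DUSP2 enters, and -0.25 with length and GC trends removed, with and without the replicate block. The p38 and JNK median of -0.04 was 0.0064 without sgKCNQ3 replicate 2. The cytoplasmic median of -0.21 was -0.18 with library size scaling and -0.12 on either TPM scale. The p38 and JNK median was 0.036 on log2(TPM + 1) and 0.0373 on log2(TPM + 0.1). The direction changed, without a call, for DUSP7 (0.0426 and 0.0447) and DUSP10 (0.036 and 0.0373) on the same scales and for DUSP8 without sgKCNQ3 replicate 2, where leaving out 1 library gave -0.1597 to 0.0064; the cause was not tested. The replicate block called 3136 genes, against 3658 without it, and the same members. The deviations of same-numbered libraries from their group means correlated with r of 0.01, -0.10 and 0.01, so no shift shared by number was seen. Whether same-numbered libraries were handled together is not stated in the titles, and these values cannot decide it. Without DUSP5 the shares of the members' TPM, sgKCNQ3 minus NC, were -0.477 (nuclear), -1.09 (cytoplasmic) and 1.56 (p38 and JNK) percentage points, against -2.88, 0.836 and 2.04 with it. In CPM the last 2 were 0.168 and 2.34. With 3 libraries a group, weakly expressed DUSP2 could not be compared at this depth.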

Other observations

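The genes whose levels followed DUSP5, DUSP6 and DUSP4 most closely over the 6 libraries were sought for these 3 members alone. Likeness was Pearson's r of log2 CPM, ranked over 10907 genes, and since the libraries form 2 separate groups it mainly ranks genes by how cleanly these differ. For DUSP5 they were C12orf50 (r 0.9983, log2 fold change -0.25), ODC1 (r 0.9979, -0.49), the key enzyme of polyamine synthesis, and STC1 (r 0.9976, -0.58), which encodes stanniocalcin. For DUSP6 they were FAM216A (r 0.9987, -0.25), IFFO1 (r 0.9973, -0.57) and YIF1A (r 0.9944, -0.19). For DUSP4 they were the tyrosine kinase gene FRK (r 0.9984, 0.98), MBTD1 (r 0.9983, 0.63) and the scaffold gene DLG1 (r 0.9981, 0.25).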
